A study of Mus musculus with 151 samples.

Results

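This report follows 9 mouse genes that are read as markers of cellular senescence or as factors that senescent cells secrete: Cdkn1a, Cdkn2a, Cdkn2b, Cdkn2d, Trp53, Gdf15, Il6, Lmnb1 and Igfbp3. They were picked by name, among 35976 gene names listed in each count table, and all 9 were found in all 7 tables. The tables held 143 RNA-seq libraries from female mice conceived naturally (Natural) or by in vitro fertilization (IVF). All mice came from CF-1 females crossed with B6/SJL males. For the IVF groups, oocytes of superovulated females were fertilized in a dish, and the embryos grew to blastocysts in culture before transfer to CF-1 recipients, whereas the Natural groups had neither superovulation of the mother nor embryo transfer. Embryo culture, superovulation and transfer therefore came together in every IVF group and cannot be told apart. Whole ovaries came from E18.5 fetuses, on a count of embryonic days (4 Natural and 6 IVF libraries), from females of 12 weeks (4 and 5) and from females of 39 weeks (5 and 5). The labels give E18.5 for both fetal groups, as does the study's outline of its design, but its methods put the collection of IVF pregnancies 1 day later than that of natural ones. If the later day holds for these libraries, conception and day of collection cannot be told apart in the fetal ovaries. Pools of 100 primordial germ cells (PGCs), the fetal precursors of the oocytes, were profiled at E13.5 (4 and 5). Pools of cumulus cells, the somatic cells around the ovulated oocyte, were profiled at 12 weeks (5 and 5). The library name of 1 of them, the pool labelled Natural replicate 5, carries the number of an IVF oocyte donor set. It was kept in the group its label gives, and the cumulus values are given with and without it. Single oocytes were collected from females given gonadotropins at 12 weeks (36 and 40) and at 39 weeks (9 and 10). The 12-week oocytes were grouped by the leading numbers of their library names, read here as donor sets, 5 per group. They were summed per set for tests. The 39-week oocytes carried no donor name, so each 39-week oocyte group counted as 1 sample without a test.

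Senescence is a lasting arrest of the cell cycle that follows DNA damage, short telomeres or oncogene activity. It is held by tumour suppressor routes. In one, p53 (Trp53) switches on p21 (Cdkn1a), and in another the INK4 proteins p16 (Cdkn2a), p15 (Cdkn2b) and p19Ink4d (Cdkn2d) block the cyclin D kinases, so that the retinoblastoma protein stays active. Senescent cells lose the nuclear envelope protein lamin B1 (Lmnb1) and release cytokines, growth factors and proteases, among them interleukin-6 (Il6), GDF15 and the insulin-like growth factor carrier IGFBP3. In the ovary the same genes also serve normal tissue, since granulosa cells stop dividing when they turn into luteal cells and since corpora lutea regress in each cycle.

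Cdkn2a lies on chr4 at 89274471-89294653 (GRCm38, minus strand) and holds 2 start sites that the counts do not tell apart. The outer first exon gives p19Arf, which stabilises p53, and the inner one gives p16Ink4a, and reads were counted per gene. Cdkn2b is its neighbour, 11645 bases away on the same strand (chr4:89306299-89311039). The stretches before the starts of these genes, and before the first starts of Cdkn1a and Gdf15, are shown. Cdkn2a and Gdf15 were the members whose level changed with age in Natural ovaries, and Cdkn1a is the textbook p53 target. Sequences are RefSeq promoter windows of GRCm38.p6, written 5′ to 3′ on the gene's strand, without bases that GENCODE places in an exon. Capitals mark GC boxes (GGGCGG), cAMP response half-sites (TGACGT) and p53 half-sites (by the usual consensus), each searched on both strands.
Cdkn2a, outer start, chr4:89294654-89294869: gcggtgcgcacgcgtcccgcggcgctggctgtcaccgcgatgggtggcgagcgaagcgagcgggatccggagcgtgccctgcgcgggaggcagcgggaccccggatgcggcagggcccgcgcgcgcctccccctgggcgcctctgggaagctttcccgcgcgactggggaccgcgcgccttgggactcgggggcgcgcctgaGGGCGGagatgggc
Cdkn2a, inner start, chr4:89282193-89282442: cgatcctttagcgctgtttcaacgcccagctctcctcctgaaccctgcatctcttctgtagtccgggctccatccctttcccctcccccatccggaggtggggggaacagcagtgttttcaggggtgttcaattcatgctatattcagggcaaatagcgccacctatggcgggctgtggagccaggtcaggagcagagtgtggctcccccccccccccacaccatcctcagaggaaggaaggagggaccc
Cdkn2b, chr4:89311040-89311282: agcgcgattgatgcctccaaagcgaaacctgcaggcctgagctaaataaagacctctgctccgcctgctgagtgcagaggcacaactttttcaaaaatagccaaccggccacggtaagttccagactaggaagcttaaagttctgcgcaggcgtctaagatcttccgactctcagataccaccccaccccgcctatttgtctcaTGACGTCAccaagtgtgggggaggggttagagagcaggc
Cdkn1a, first start, chr17:29090729-29090975: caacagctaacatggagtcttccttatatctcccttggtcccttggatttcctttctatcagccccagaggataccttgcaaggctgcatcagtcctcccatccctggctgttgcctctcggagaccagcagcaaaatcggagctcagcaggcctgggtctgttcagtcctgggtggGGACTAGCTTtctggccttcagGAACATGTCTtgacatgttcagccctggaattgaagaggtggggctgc
Gdf15, first start, chr8:70632457-70632706: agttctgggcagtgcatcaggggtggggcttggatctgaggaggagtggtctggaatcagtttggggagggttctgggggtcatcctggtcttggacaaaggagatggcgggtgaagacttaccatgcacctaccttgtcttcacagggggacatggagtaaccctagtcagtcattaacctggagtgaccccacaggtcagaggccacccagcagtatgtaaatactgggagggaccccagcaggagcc
The 250-base window before the outer Cdkn2a start was 78.4% G and C, against a median of 52.4% over all 32851 mouse windows of that length. It held 2 GC boxes, 1 of which lies in the printed stretch, and 32.7% of all windows held at least 1. The inner Cdkn2a window and the Gdf15 window matched none of the motifs searched. The cAMP response half-sites of Cdkn2b overlap as a palindrome that runs from 46 to 39 bases before the start, and 6.47% of all windows held such a half-site. Cdkn1a had 2 p53 half-sites, from 73 to 64 and from 51 to 42 bases before its first start, and 7.13% of all windows held 1 or more. Its second window, not shown, held 0 p53 half-sites and 2 GC boxes. The windows of Cdkn2d, Trp53 and Il6, also not shown, held 1 p53 half-site each. TATA boxes (TATAAA) and AP-1 sites (TGANTCA), found in 12.4% and 6.75% of all windows, were not found in the 5 windows shown. These matches describe letters only. Of the 9 members, 8 had a window, and for Lmnb1 none was found in the table used.

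Total counts per ovary library ran from 2839022 (IVF replicate 4 at 12 weeks) to 43363799, those of PGC pools from 4364495 to 8675189, those of cumulus pools from 2532824 to 6345249, and those of 39-week oocytes from 2820748 to 31126357. Levels are given as CPM, reads scaled to a common library size. TMM normalization was used for ovaries, PGC pools, cumulus pools and 12-week oocyte sets, the adult ovaries scaled together and each other table on its own. The CPM of single oocytes and of pooled oocytes, at both ages, are counts over total counts, without TMM. Defining markers were present in oocyte sets and PGC pools: summed oocyte markers reached a median of 25400 CPM in Natural oocyte sets, and summed germ cell markers a median of 6312 CPM in Natural PGC pools. The ovary libraries also carried oviduct and epithelium markers (8 genes such as Ovgp1 and Foxj1) at very different levels. Their summed level was 3425 to 7888 CPM in the 12-week Natural ovaries, 91.2 to 3004 CPM in the 12-week IVF ovaries, 61.3 to 255 CPM in the 39-week Natural ovaries and 66.1 to 175 CPM in the 39-week IVF ovaries other than replicate 1, which reached 9426 CPM. The labels give 1 Natural ovary of the 39-week table (replicate 5) as both 39 and 40 weeks old.

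No member differed between IVF and Natural in any of the 6 tables tested (edgeR quasi-likelihood, Benjamini-Hochberg adjusted p below 0.05 over all genes). Of the members that passed the filter on low counts, 0 of 7 were called in E18.5 ovaries (background 5.43% of all genes tested), 0 of 8 in 12-week ovaries (0.00567%), 0 of 8 in 39-week ovaries (0.262%), 0 of 6 in PGCs (0%), 0 of 7 in 12-week oocyte sets (0.0277%) and 0 of 5 in cumulus cells (0.00973%). At an unadjusted p below 0.05 the counts were 1, 2, 3, 0, 0 and 1 in the same order. DESeq2 called 1 member in 39-week ovaries, Cdkn2a, where it called 1229 of all 17186 genes, and 0 members in the other 5 tables. No member had Natural and IVF libraries that did not overlap, which held for 8.61%, 6.09% and 5.11% of all genes in E18.5, 12-week and 39-week ovaries, 1.18% in PGCs, 1.39% in oocyte sets and 0.759% in cumulus cells. The median log2 fold change of the members tested was −0.19, −0.15 and −0.16 in the ovary tables in order of age, −0.033 in PGCs, 0.053 in oocyte sets and 0.21 in cumulus cells, and that of all genes lay between −0.041 and 0.027 in the 6 tables. From 12 to 39 weeks, Cdkn2a rose and Gdf15 fell in Natural ovaries (2 of 8 members, background 20.4%), and Cdkn2d fell in IVF ovaries (1 of 8, background 6.34%). The share in Natural ovaries was close to its background, which is a description of the tissue as a whole. Age cannot be told apart from the table, or from any sequencing run, since each age has a count table of its own.

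**Figure D1:**
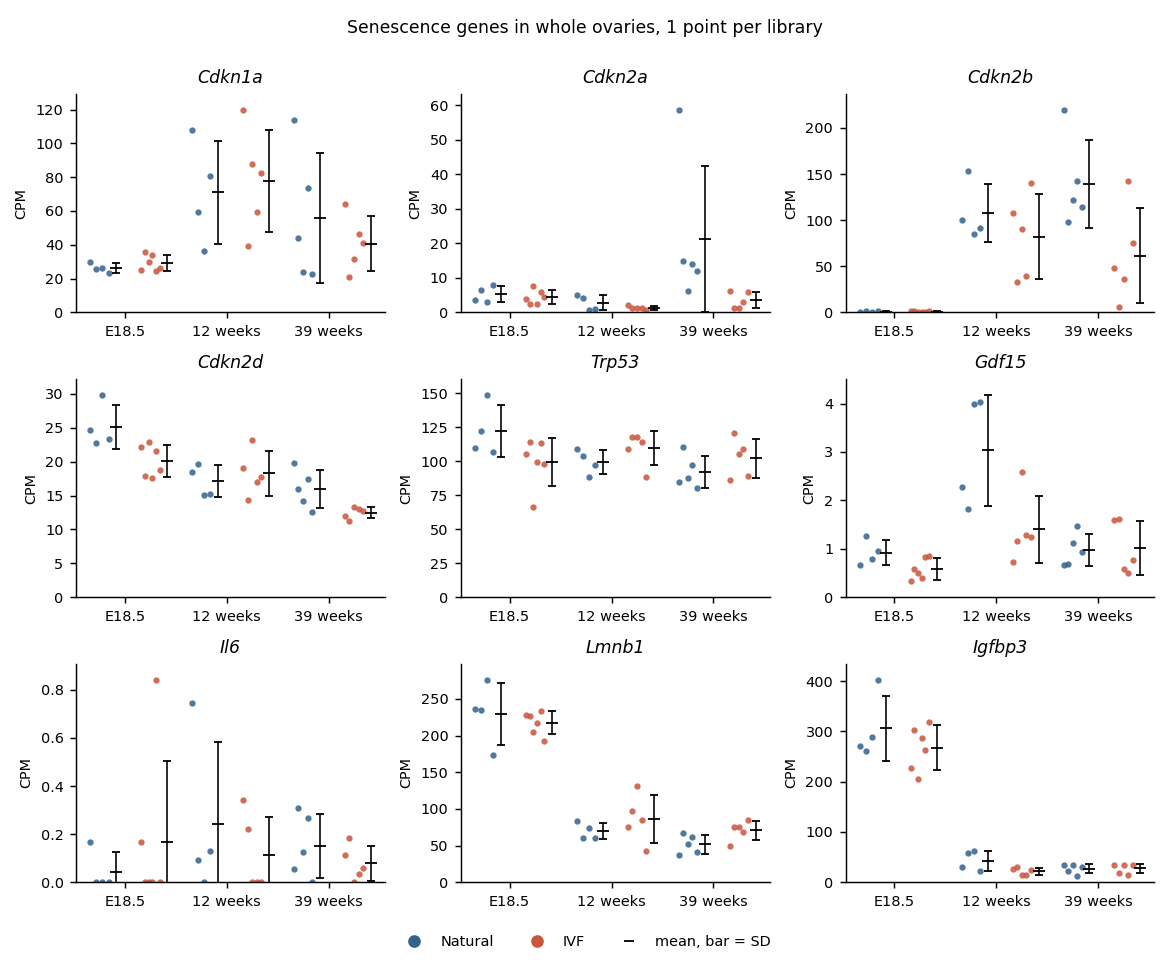
CPM of each of the 9 genes in whole ovaries of fetuses (E18.5) and of 12- and 39-week females, 1 point per library (blue Natural, red IVF), with the mean and SD as black bars (bars are cut at 0). Cdkn2a in the 39-week Natural ovaries runs from 6.32 to 58.6 CPM, above every 12-week Natural library, and Cdkn2b is near 0 at E18.5 and between 6.11 and 220 CPM in adult ovaries.

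Cdkn2a, which encodes p16Ink4a and p19Arf, had the largest log2 fold change of the members tested from 12 to 39 weeks in Natural ovaries. In the 4 Natural ovaries at 12 weeks it stood at 5.15, 4.27, 0.737 and 1.10 CPM, and in the 5 at 39 weeks at 58.6, 15.0, 6.32, 14.1 and 11.9 CPM. The groups did not overlap, which held for 24.4% of all genes in this comparison. The mean was 2.81 ± 2.22 CPM (SD, n = 4) at 12 weeks and 21.2 ± 21.2 CPM (SD, n = 5) at 39 weeks, and the log2 fold change was 2.92 ± 0.73 (SE, adjusted p = 0.0126, edgeR). Replicate 1 at 39 weeks stood far above the other 4, and without it the log2 fold change was 2.09, still called. Over all 19 fits that left out 1 adult ovary each, it ran from 2.09 to 3.39 and was called in 19 of 19. In IVF ovaries Cdkn2a stood at 2.07, 1.14, 1.39, 1.28 and 0.716 CPM at 12 weeks, the value 1.28 resting on 4 reads. At 39 weeks it stood at 6.31, 1.31, 1.27, 2.96 and 5.79 CPM. Here the ages overlapped, and the log2 fold change of 1.40 ± 0.67 (SE) was not called (adjusted p = 0.228, edgeR). The difference between the age changes, −1.52 ± 0.95 on the log2 scale, was not called either (adjusted p = 0.395), so the data do not show that the age change differed by conception.

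At 39 weeks the Cdkn2a levels of the 2 conception groups met at 6.31 CPM (IVF replicate 1, highest of its group) and 6.32 CPM (Natural replicate 3, lowest of its group). They overlapped once the 39-week table was scaled on its own. The log2 fold change of IVF against Natural was −2.58 ± 0.69 (SE), with an adjusted p of 0.107 in edgeR. DESeq2 called it (−2.58, adjusted p = 0.00193). Leaving out Natural replicate 1 brought the value to −1.75 (adjusted p = 0.226), and the 10 fits that each left out 1 library ran from −2.90 to −1.75 with no call. Summed markers of theca and luteal cells (8 genes such as Star, Cyp11a1 and Ptgfr) stood at 21600 to 36160 CPM in these Natural ovaries and at 11880 to 27320 CPM in the IVF ovaries. Natural replicate 1 had the highest theca and luteal level and the lowest granulosa level (839 CPM, against 1535 to 2214 CPM in the other 4). The part of tissue makeup in the Cdkn2a values was not tested, and in whole ovaries fewer cells of a type and less RNA per cell cannot be told apart. At 12 weeks the log2 fold change was −1.08 ± 0.59 (SE, adjusted p = 0.425), and at E18.5 it was −0.24 ± 0.38 (SE, adjusted p = 0.745), with 2.99 to 7.91 CPM in Natural and 2.40 to 7.74 CPM in IVF libraries.

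Cdkn2b, which encodes p15, was a gene of the adult ovary. At E18.5 it stood at 0.333 to 1.36 CPM in Natural and 0.401 to 1.76 CPM in IVF libraries. At 12 weeks it reached 99.8, 154, 84.7 and 91.4 CPM in Natural ovaries and 108, 32.9, 90.0, 39.6 and 140 CPM in IVF ovaries. At 39 weeks the Natural ovaries gave 220, 97.8, 122, 143 and 114 CPM, and the IVF ovaries gave 47.8, 6.11, 36.2, 143 and 75.0 CPM. Of the 5 IVF libraries at 39 weeks, 4 lay below the lowest Natural library and 1 (replicate 4) lay level with the second highest. The log2 fold change of −1.18 ± 0.60 (SE) was not called (adjusted p = 0.303, edgeR). Without IVF replicate 4 it was −1.75 (adjusted p = 0.189). The change with age was 0.38 ± 0.57 (SE) in Natural and −0.43 ± 0.54 (SE) in IVF ovaries on the log2 scale, neither called. Per kb of exon, Cdkn2b was the most abundant of the 9 members in all 4 adult ovary groups, with a mean of 77.3 CPM per kb in 12-week and 100 CPM per kb in 39-week Natural ovaries, against 18.1 CPM per kb for Cdkn2a in the latter.

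Cdkn2d encodes p19Ink4d, an INK4 protein that is also expressed in dividing and differentiating cells. In IVF ovaries it stood at 19.1, 14.3, 23.2, 16.9 and 17.7 CPM at 12 weeks and at 12.0, 11.2, 13.3, 13.0 and 12.7 CPM at 39 weeks. Every 39-week library lay below every 12-week library (6.24% of all genes did not overlap in this comparison). Cdkn2d fell by 0.55 ± 0.14 on the log2 scale (SE, adjusted p = 0.0325, edgeR). The call was narrow: it was lost in 5 of the 19 fits without 1 library, when 12-week IVF replicate 1 or 3 or 39-week IVF replicate 2, 4 or 5 was left out, with values from −0.63 to −0.45 over all 19. It was also lost without the filter on low counts (−0.57, adjusted p = 0.0580), with a replicate block (−0.54, adjusted p = 0.123) and over the same libraries without the block (−0.54, adjusted p = 0.0811). In Natural ovaries the levels were 18.4, 19.7, 15.0 and 15.2 CPM at 12 weeks and 19.7, 15.9, 14.2, 17.4 and 12.6 CPM at 39 weeks, with overlapping groups and a log2 fold change of −0.10 ± 0.15 (SE, adjusted p = 0.685). The difference between the age changes was −0.45 ± 0.21 (SE) and was not called (adjusted p = 0.236). Between conceptions Cdkn2d gave −0.35 ± 0.14 (SE, adjusted p = 0.220) at 39 weeks and −0.32 ± 0.14 (SE, adjusted p = 0.174) at E18.5, where the Natural libraries ran from 22.7 to 29.8 CPM and the IVF libraries from 17.5 to 22.9 CPM.

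Cdkn1a, which encodes p21, varied widely among adult ovaries. At 12 weeks it ran from 36.4 to 108 CPM in Natural and from 39.3 to 120 CPM in IVF libraries. At 39 weeks the ranges were 23.0 to 114 CPM and 20.9 to 63.9 CPM. All these groups overlapped, and no comparison of Cdkn1a in ovaries was called. The largest was the age change in IVF ovaries, −0.94 ± 0.43 on the log2 scale (SE, adjusted p = 0.207, edgeR). In 39-week Natural replicate 1, the library with the highest Cdkn2a level, Cdkn1a (114 CPM), Cdkn2b (220 CPM) and Cdkn2d (19.7 CPM) were the highest of their group too. At E18.5 Cdkn1a was tighter, at 26.2 ± 2.8 CPM (SD, n = 4) for Natural and 29.3 ± 4.9 CPM (SD, n = 6) for IVF.

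Trp53 was the steadiest member in ovaries. Its group means lay between 92.2 and 122 CPM at all 3 ages, the 39-week values being 92.2 ± 11.9 CPM (SD, n = 5) for Natural and 102 ± 14.3 CPM (SD, n = 5) for IVF. The log2 fold changes of IVF against Natural were −0.29 ± 0.15 (SE) at E18.5, 0.14 ± 0.11 (SE) at 12 weeks and 0.15 ± 0.12 (SE) at 39 weeks, with adjusted p of 0.248, 0.583 and 0.500 in edgeR. The age changes were −0.11 ± 0.12 (SE) in Natural and −0.10 ± 0.11 (SE) in IVF ovaries.

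Lmnb1, the lamin that senescent cells lose, stood highest in the fetal ovary, at 230 ± 42.2 CPM (SD, n = 4) for Natural and 217 ± 15.7 CPM (SD, n = 6) for IVF. At 12 weeks it stood at 83.1, 60.5, 74.4 and 60.8 CPM in Natural and at 75.1, 97.3, 131, 84.6 and 43.2 CPM in IVF ovaries. At 39 weeks the levels were 37.0, 67.5, 51.9, 61.3 and 41.0 CPM in Natural and 49.9, 76.0, 75.2, 68.0 and 84.7 CPM in IVF ovaries. The IVF libraries lay higher on the whole but overlapped the Natural ones, and the log2 fold change at 39 weeks was 0.45 ± 0.19 (SE, adjusted p = 0.230, edgeR). The age change was −0.43 ± 0.24 (SE, adjusted p = 0.221) in Natural and −0.28 ± 0.23 (SE, adjusted p = 0.518) in IVF ovaries.

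Gdf15, a stress-induced member of the TGF-β family that acts on the receptor GFRAL, was low in every ovary. At 12 weeks it stood at 2.28, 1.83, 3.99 and 4.04 CPM in Natural ovaries (39 to 125 reads). At 39 weeks it stood at 0.665, 0.695, 1.13, 1.46 and 0.940 CPM (12 to 44 reads). The ages did not overlap, and Gdf15 fell by 1.63 ± 0.42 on the log2 scale (SE, adjusted p = 0.0150, edgeR). It was called in 19 of 19 fits without 1 library, with values from −1.82 to −1.46. With a replicate block it gave −1.60 (adjusted p = 0.0624, edgeR) and was not called. In IVF ovaries the levels were 0.728, 1.17, 2.59, 1.28 and 1.25 CPM at 12 weeks and 1.61, 1.63, 0.575, 0.498 and 0.762 CPM at 39 weeks, with a log2 fold change of −0.45 ± 0.41 (SE, adjusted p = 0.578). The difference between the age changes was 1.18 ± 0.59 (SE) and was not called (adjusted p = 0.279). At 12 weeks the Natural and IVF groups overlapped through 1 IVF library (replicate 3), and the log2 fold change was −1.15 ± 0.40 (SE, adjusted p = 0.249). Oviduct and epithelium markers were also higher in every 12-week Natural ovary than in every other adult ovary but 39-week IVF replicate 1. Within that group the library with the highest Gdf15 level (replicate 4) had the lowest oviduct level, 3425 CPM, and the library with nearly the same Gdf15 level (replicate 3) had the highest, 7888 CPM. The part of the oviduct in the Gdf15 change was not tested.

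Igfbp3, a secreted carrier of insulin-like growth factors, was the most abundant member per kb in the fetal ovary (97.7 CPM per kb in Natural libraries) and far lower in adult ovaries. At E18.5 it stood at 306 ± 65.3 CPM (SD, n = 4) for Natural and 268 ± 44.3 CPM (SD, n = 6) for IVF. At 12 weeks it stood at 30.1, 59.0, 61.5 and 22.1 CPM in Natural and 25.8, 30.1, 14.3, 14.7 and 24.7 CPM in IVF ovaries. Both groups overlapped, and the log2 fold change of −0.95 ± 0.34 (SE) was not called (adjusted p = 0.252, edgeR). At 39 weeks the groups were level, at 27.0 ± 9.1 CPM (SD, n = 5) and 27.6 ± 9.7 CPM (SD, n = 5). Il6, the interleukin that gives the secretory phenotype its best-known signal, was at or near 0 throughout. It reached at most 19 reads (0.747 CPM, 12-week Natural replicate 1) in any ovary library and passed the filter on low counts in no table, so it was not tested. No group of ovaries had a mean above 0.243 CPM, and a difference in Il6 was not detectable at this depth.

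**Figure D2:**
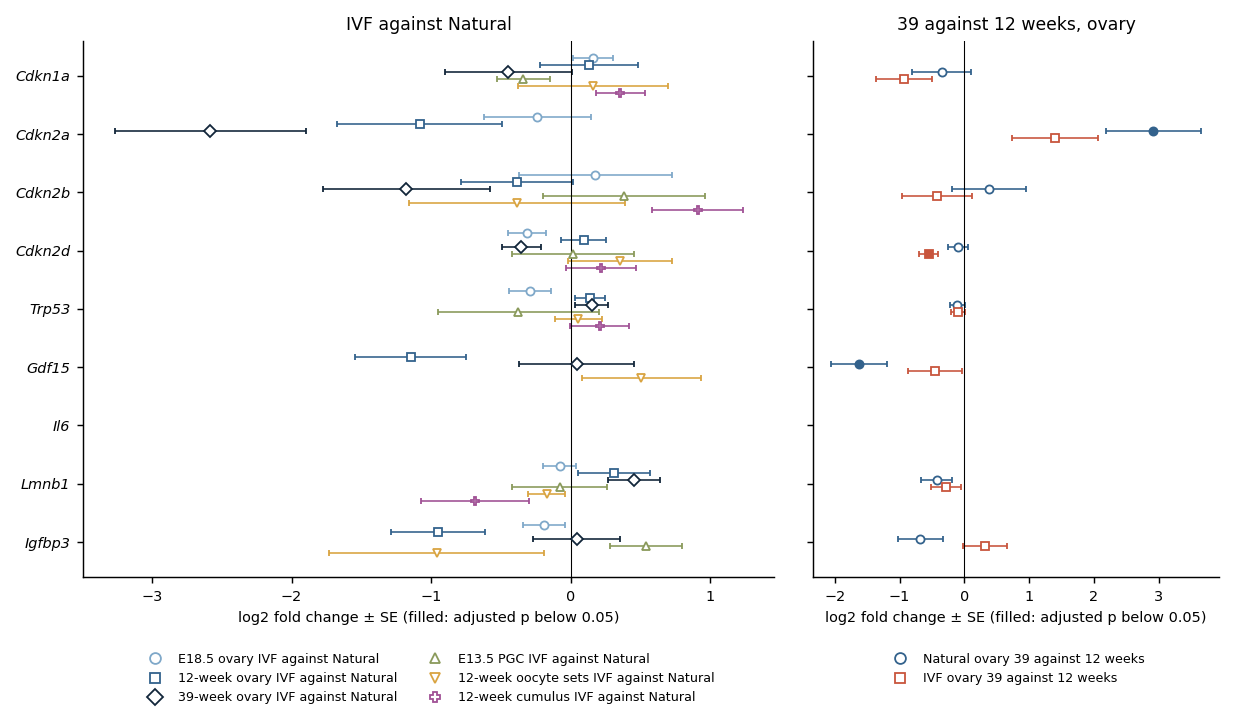
Log2 fold changes with SE (horizontal bars) of the members that passed the filter, for IVF against Natural in 6 tables (left) and for 39 against 12 weeks in Natural and IVF ovaries (right); filled symbols mark an adjusted p below 0.05. All symbols on the left are open, and on the right Cdkn2a (2.92) and Gdf15 (−1.63) in Natural and Cdkn2d (−0.55) in IVF ovaries are filled.

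In the PGC pools Trp53 led the 9 members, also per kb (118 CPM per kb in Natural pools). It stood at 665, 85.2, 683 and 469 CPM in Natural and at 534, 135, 259, 696 and 206 CPM in IVF pools, a range of several fold within each group. The log2 fold change was −0.38 ± 0.58 (SE), and the 6 members tested shared an adjusted p of 1.00 in edgeR. Natural replicate 2, the pool with the lowest Trp53 level, had the highest Cdkn2d level (114 CPM, against 19.3 to 55.1 CPM in the other 3) and 40 of the 42 Cdkn2a reads of its group. Cdkn1a ran from 40.5 to 56.4 CPM in Natural and from 33.1 to 48.6 CPM in IVF pools. Igfbp3 ran from 20.4 to 34.4 CPM and from 27.1 to 49.2 CPM, with a log2 fold change of 0.54 ± 0.26 (SE). Gdf15 and Cdkn2a were at 0 to 10 reads per pool apart from the replicate named, and Il6 gave 1 read in all 9 pools.

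In cumulus cells Cdkn1a was the leading member. It stood at 239, 283, 118, 130 and 181 CPM in Natural and at 141, 227, 185, 314 and 346 CPM in IVF pools, or 53.5 and 68.3 CPM per kb on average. The log2 fold change, with the style of library name as a covariate, was 0.36 ± 0.17 (SE, adjusted p = 0.822, edgeR), and 0.47 ± 0.18 (SE, adjusted p = 0.747) without the pool labelled Natural replicate 5 (181 CPM). Cdkn2b stood at 10.4, 6.02, 16.6, 11.0 and 6.60 CPM in Natural and at 10.9, 21.2, 11.7, 29.9 and 23.4 CPM in IVF pools. The highest 3 pools were IVF, the groups overlapped, and the log2 fold change was 0.91 ± 0.32 (SE, adjusted p = 0.662, edgeR), and 0.81 ± 0.34 (SE, adjusted p = 0.801) without the same pool (6.60 CPM). Cdkn2a gave no read in any of the 10 pools, which at 3 reads in the shallowest pool allows up to 1.06 CPM there. Gdf15 was also at 0 in all 5 Natural pools and at 0, 0.850, 1.03, 0 and 1.62 CPM in IVF pools, at most 10 reads. Lmnb1 was low, at 4.95 to 15.9 CPM in Natural and 1.15 to 15.8 CPM in IVF pools. Summed granulosa markers ran from 1131 to 2099 CPM in Natural and from 1549 to 1980 CPM in IVF pools. Summed immune cell markers ran from 85.2 to 2429 CPM (median 1179) in Natural and from 165 to 4495 CPM (median 397) in IVF pools. The part of immune cells in the cumulus values was not tested.

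**Figure D3:**
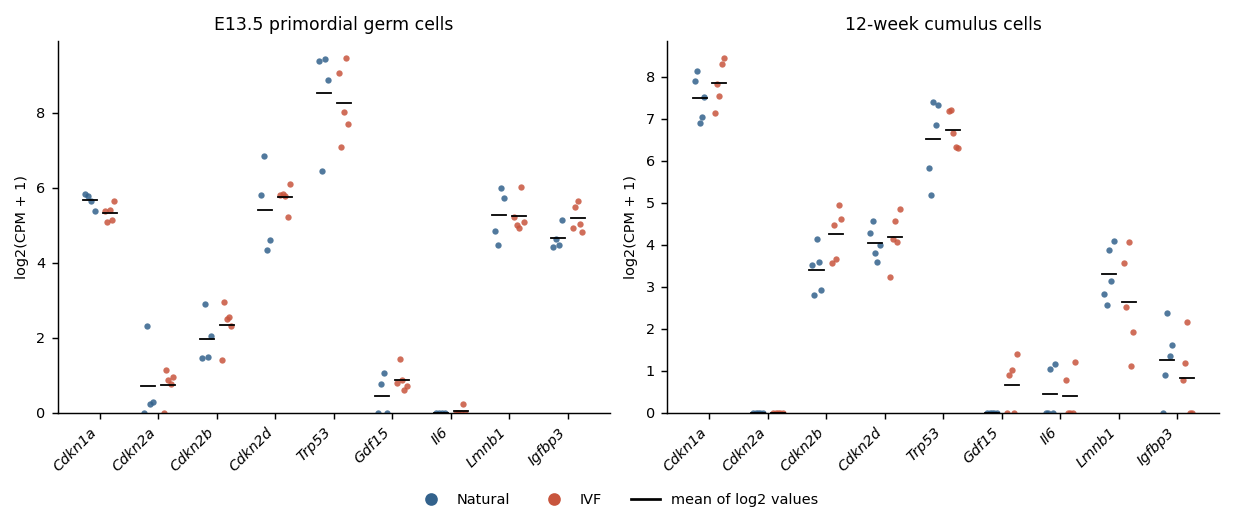
Levels of the 9 genes as log2(CPM + 1) in E13.5 primordial germ cell pools (left) and 12-week cumulus pools (right), 1 point per pool, with the mean of the log2 values as a line. Trp53 is the highest gene in germ cells and Cdkn1a in cumulus cells, and the Natural and IVF points of each tested gene overlap.

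In the 12-week oocyte sets Trp53 and Lmnb1 were the abundant members. Trp53 stood at 87.1, 61.6, 76.2, 77.3 and 67.3 CPM in Natural and at 94.1, 71.6, 51.1, 78.6 and 87.9 CPM in IVF sets, with a log2 fold change of 0.053 ± 0.167 (SE, adjusted p = 0.975, edgeR). Lmnb1 stood at 31.8 ± 3.9 CPM (SD, n = 5) in Natural sets and at 28.2 ± 2.0 CPM (SD, n = 5) in IVF sets. Its log2 fold change was −0.17 ± 0.13 (SE, adjusted p = 0.874, edgeR). Both were found in every one of the 36 Natural and 40 IVF oocytes. The cell-cycle inhibitors were far lower. Cdkn1a stood at 1.30 to 4.86 CPM in Natural and 0.794 to 7.25 CPM in IVF sets, and Cdkn2d at 0.437 to 2.19 CPM and 1.44 to 1.69 CPM. Cdkn2a was near 0. It was found in 5.56% of Natural oocytes (exact 95% binomial interval 0.68% to 18.7%) and in 5.00% of IVF oocytes (0.611% to 16.9%). Gdf15 was found in 88.9% of Natural oocytes (73.9% to 96.9%) and in 80.0% of IVF oocytes (64.4% to 90.9%), at 0.591 to 1.87 CPM and 0.926 to 3.39 CPM per set. Its log2 fold change was 0.50 ± 0.43 (SE, adjusted p = 0.891). These intervals cover counting error only.

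The 39-week oocytes gave values without a test. Lmnb1 was lower than at 12 weeks in both conception groups. The 9 Natural oocytes stood at 4.24 (lowest), 9.57 (median) and 31.5 CPM (highest), and the 10 IVF oocytes at 5.09, 8.38 and 26.9 CPM, whereas the 12-week oocytes stood at 14.3, 28.7 and 56.1 CPM (Natural) and 12.7, 28.6 and 76.3 CPM (IVF). Pooled over oocytes, Lmnb1 went from 30.1 to 12.7 CPM in Natural (ratio 0.420) and from 29.0 to 11.7 CPM in IVF oocytes (ratio 0.405). Between the ages 44.5% of all genes differed at least 2-fold in Natural and 34.4% in IVF oocytes, so a change of this size was common. Of the members, 5 of 6 differed at least 2-fold with age in Natural oocytes and 1 of 5, Lmnb1, in IVF oocytes. The 5 include Cdkn2b, which went from 0.575 to 1.26 CPM (ratio 2.19), but to 0.451 CPM, below its 12-week level, without Natural oocyte 4 at 39 weeks. After TMM scaling of the pools, the Natural ratios of Cdkn2b (1.86) and Gdf15 (1.75) were below 2. Cdkn2d went from 1.26 to 5.83 CPM (ratio 4.61) in Natural oocytes and from 1.61 to 1.41 CPM in IVF oocytes. Cdkn1a went from 3.03 to 9.32 CPM and from 2.99 to 3.32 CPM.

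Natural oocyte 9 carried much of the Natural pool. It held the highest Cdkn1a (34.6 CPM), Cdkn2d (18.3 CPM), Trp53 (190 CPM), Gdf15 (9.63 CPM) and Lmnb1 (31.5 CPM) of its group, with 6684 CPM of summed oocyte markers against a group median of 24230 CPM. Natural oocyte 6 had the lowest oocyte marker level, 3064 CPM, and did not stand apart for these members. Without Natural oocyte 9, 3 of the 6 members differed at least 2-fold with age in Natural oocytes. They were Cdkn2d (ratio 2.58), Cdkn2b (2.64, with oocyte 4 kept) and Lmnb1 (0.292). Cdkn1a (1.36) and Gdf15 (0.737) did not reach 2-fold. Between conceptions at 39 weeks, 3 of 6 members differed at least 2-fold (background 30.1%), all lower in IVF: Cdkn1a (ratio 0.356), Cdkn2b (0.186) and Cdkn2d (0.241). Cdkn2d ran over single oocytes from 0.589 to 18.3 CPM with a median of 3.04 CPM in Natural and from 0 to 6.92 CPM with a median of 0.776 CPM in IVF oocytes. Without Natural oocyte 9 the ratio of Cdkn2d was 0.431 and that of Cdkn1a was 0.803. Gdf15 had a ratio of 1.27 with all oocytes and 3.55 without Natural oocyte 9. Without IVF oocyte 8, which held the highest Gdf15 level of its group (9.57 CPM), that ratio was 0.680. The direction of the Gdf15 difference thus turned on single oocytes. The Cdkn2b value rested largely on Natural oocyte 4 (15.1 CPM), which held 90 of the 136 Cdkn2b reads of its group. Summed erythroid markers (6 genes) ran from 115 to 18370 CPM with a median of 2023 CPM in the 39-week Natural oocytes and from 2.34 to 27000 CPM with a median of 184 CPM in the IVF oocytes, against at most 357 CPM in any 12-week set. Summed immune cell markers (10 genes, Cd3e at 0) ran from 2.51 to 183 CPM with a median of 33.3 CPM in the Natural oocytes, highest in oocyte 4, and from 1.65 to 45.9 CPM with a median of 7.57 CPM in the IVF oocytes. In the 12-week sets the immune medians were 3.72 CPM (Natural) and 7.27 CPM (IVF). Each 12-week set sums several oocytes and is TMM-scaled, so its marker levels are not directly comparable with those of single 39-week oocytes. The part of these cells in the oocyte values was not tested. Il6 was at 0 in all 19 oocytes, and Cdkn2a gave 2 reads in 1 oocyte. Igfbp3 was at 0 in the 9 Natural oocytes, which allows a share of up to 33.3% of oocytes with a read (3 of 9, counting error only), and was found in 3 of 10 IVF oocytes.

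**Figure D4:**
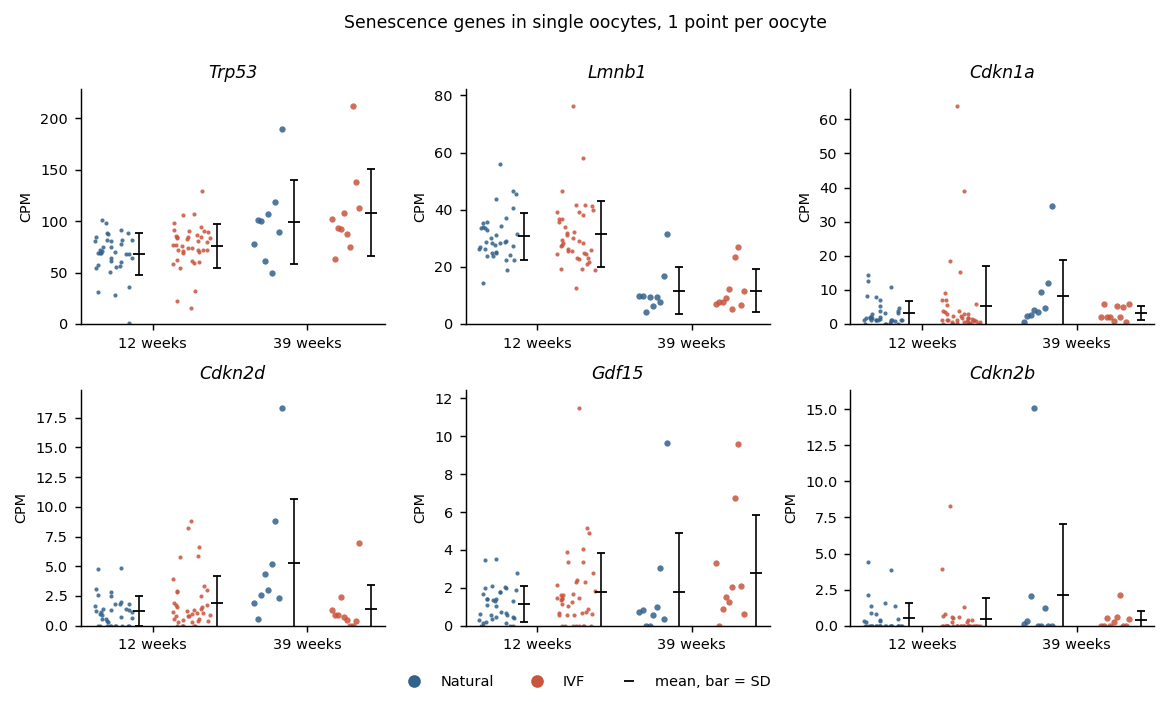
CPM of 6 members in single oocytes at 12 and 39 weeks, 1 point per oocyte (blue Natural, red IVF), with the mean and SD over oocytes as black bars (cut at 0). Lmnb1 medians are 28.7 and 28.6 CPM at 12 weeks and 9.57 and 8.38 CPM at 39 weeks. At 39 weeks 1 Natural oocyte stands above the other Natural oocytes for Cdkn1a, Cdkn2d, Trp53, Gdf15 and Lmnb1. An IVF oocyte lies above that Natural oocyte for Trp53 (212 against 190 CPM) and close to it for Gdf15 (9.574 against 9.633 CPM).

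The pathway around the members was read from lists of other genes. In Natural ovaries from 12 to 39 weeks, against 20.4% of all genes called, 3 of 18 other cell-cycle inhibitors and RB-axis genes were called: Rbl2 (p130, the RB relative of resting cells) rose by 0.84 and Ccnd1 (cyclin D1) and Cdk4 fell by 1.73 and 0.34 on the log2 scale. Of 26 p53 regulators and targets 1 rose and 4 fell, with Perp at −1.56, Dcxr at −2.09, Btg2 at −0.63, Bax at −0.41 and Ccng1 at 0.57. Of 35 other secreted factors 5 rose and 1 fell, and among them the protease Mmp9 rose by 1.91, Plau (urokinase) by 1.06, Tgfb1 by 0.84 and Icam1 by 0.73. Areg (amphiregulin, an ovulation signal) fell, and since it had 0 reads in every 39-week Natural ovary no fold is given. Of 15 genes of the integrated stress response, the route that switches on Gdf15, 0 rose and 5 fell: Slc7a11 (−2.44), Psat1 (−1.29), Atf4 (−0.73), Cebpb (−0.63) and Cebpg (−0.37). The median of that list was −0.34, against −0.0079 over all genes. Of 15 lamina and senescence chromatin genes 2 rose and 5 fell. The Polycomb genes Cbx7 (1.24) and Bmi1 (0.47), whose products repress the Cdkn2a locus, rose, and Hmga2 (−1.01), Hmgb2 (−0.93) and Lmnb2 (−0.55) were among those that fell.

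In the other lists of the Natural ovary, Osmr (0.83), Jak1 (0.45) and Il6st (0.40), which carry signals of the IL-6 family, rose among 9 tested, and Igfbp4 (1.09), Igf2r (0.68) and Igf1r (0.51) rose and Igfbp5 (−0.61) fell among 11 genes of the IGF axis. None of 20 proliferation genes was called, with a list median of −0.45. An unadjusted p below 0.05 was seen for 5, all lower, against 6636 of all 19066 genes. In IVF ovaries over the same ages, against 6.34% of all genes, Atf4 (−0.70) and Nupr1 (−1.53) fell among the stress response genes, Hmga2 (−1.01) and Hmgb2 (−0.98) fell among the chromatin genes, Cenpa (−0.84) and Pcna (−0.42) fell among the proliferation genes, and Il6st (0.70) rose. Among p53 targets Gadd45a fell by 1.19 and Ei24 rose by 0.29, Ccnd3 rose by 0.43 and Pappa, which cleaves IGF carriers, rose by 2.57. None of the 35 other secreted factors was called in IVF ovaries (edgeR). At an unadjusted p below 0.05 there were 2, 1 in each direction, against 4265 of all 19066 genes. Whether these lists differed in age change between conceptions was read from the interaction, in which no gene of any of them was called (background 0.0157%). Immune cell markers stood at 236 to 438 CPM in 12-week and 360 to 453 CPM in 39-week Natural ovaries, summed over 10 genes, and 3 of the 10 rose. Their part in the secreted factors was not tested.

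Between conceptions, Plau was the only gene of these lists called in adult ovaries. It was lower in IVF at 39 weeks, at −0.84 ± 0.14 on the log2 scale (SE, adjusted p = 0.0408, edgeR), against 0.262% of all genes called. The Plau call was lost without 39-week Natural replicate 5, since that fit called 0 of 17259 genes. In E18.5 ovaries, Igfbp7 (−0.88) and Igfbp6 (−0.80), members of the same family of binding proteins as Igfbp3, were lower in IVF, as were Hmgb2 (−0.63), Cdk1 (−0.64) and Phgdh (−0.54), against 5.43% of all genes called. Of 9 oocyte markers tested, 5 were called lower in the same IVF ovaries (summed level 27.8 to 209 CPM against 214 to 852 CPM). Of 6 erythroid markers 2 were called higher (1601 to 4582 CPM in IVF against 599 to 1600 CPM in Natural), as were 3 of 8 theca and luteal markers, Lhcgr, Cyp17a1 and Star. Acta2, of 7 stromal markers, was called lower, as were 2 of 8 germ cell markers and 1 of 6 endothelial markers. The part of these cells in the fetal values was not tested. Of the lists around the members, none held a called gene in PGCs, oocyte sets or cumulus cells.

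**Figure D5:**
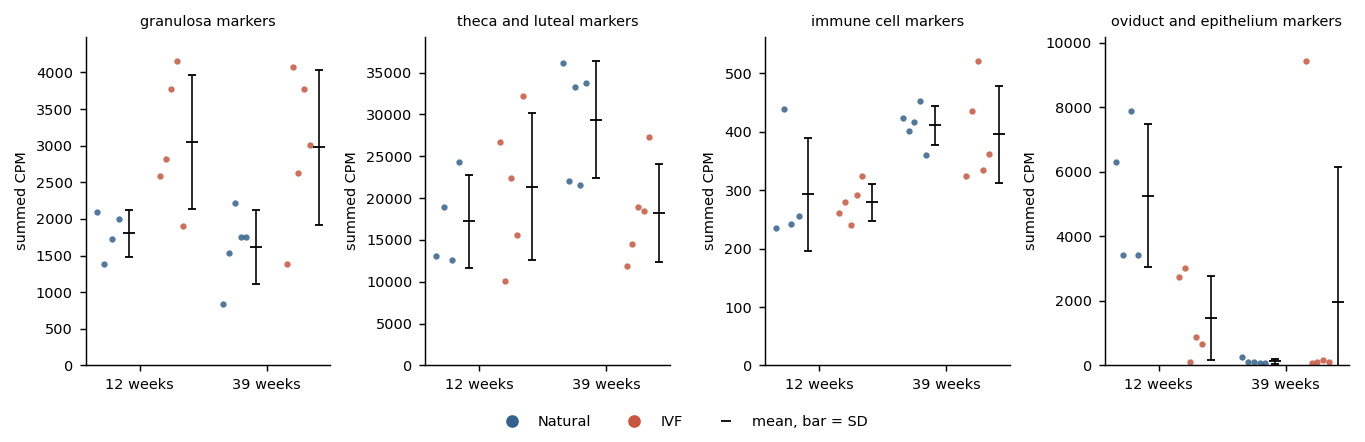
Summed CPM of granulosa, theca and luteal, immune, and oviduct and epithelium markers in adult ovaries, 1 point per library with the mean and SD as black bars. Theca and luteal markers in 39-week Natural ovaries run from 21600 to 36160 CPM, and oviduct markers are at 3425 to 7888 CPM in 12-week Natural ovaries and at 9426 CPM in 1 IVF ovary of 39 weeks.

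The 4 cell-cycle inhibitors went with one another among adult ovaries, and the other members gave values of both signs. Centred on their group means, the 19 adult ovaries gave Pearson r of 0.72 for Cdkn1a with Cdkn2d, 0.71 for Cdkn1a with Cdkn2a and 0.57 for Cdkn2a with Cdkn2d. For Cdkn2b the values were 0.56 with Cdkn1a, 0.50 with Cdkn2d and 0.42 with Cdkn2a, whereas Cdkn2b with Gdf15 gave −0.44 and Trp53 with Igfbp3 gave −0.52. Trp53 went with Lmnb1 (r = 0.69). The points share libraries and tissue makeup, and these values are a description. 1 library, 39-week Natural replicate 1, was the highest of its group for all 4 inhibitors, and r without it was not computed. Over all 29 ovary libraries, centred in the same way, the genes whose levels went most closely with a member, out of 20613, were Ccna2, Top2a and Spc25 for Lmnb1 (r = 0.95, 0.95 and 0.93), all genes of dividing cells. For Cdkn2b they were Ephx2, Onecut2 and Ptgfr (0.85, 0.85 and 0.83), the last being the prostaglandin F receptor of luteal cells. For Trp53 they were Cdk4, Zc4h2 and Slbp (0.86, 0.82 and 0.80), for Cdkn2a Ap1s1, Lpcat2 and Timp1 (0.81, 0.79 and 0.77), and for Cdkn1a Ak1, 2310022B05Rik and Gpc1 (0.82, 0.78 and 0.77). Likeness was looser for Cdkn2d (Upp2, Clstn3 and Gcsh, 0.76, 0.74 and 0.71), Igfbp3 (Dnaja4, Gas1 and Ephb2, 0.73, 0.68 and 0.66) and Gdf15 (Tex19.1, 2510003B16Rik and Gpha2, 0.68, 0.65 and 0.65).

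Over the means of the 14 groups, which differ in tissue and in library kit, Cdkn1a ran with Ftl1, Gapdh and Actb (r = 0.99, 0.99 and 0.98), Cdkn2a with Gdf6, Arhgap36 and Fgf11 (0.97, 0.97 and 0.97), Cdkn2b with Podnl1, Gpr141 and Plin4 (0.97, 0.97 and 0.97) and Cdkn2d with Mtx2, Prpsap1 and Adat3 (0.99, 0.98 and 0.98). Trp53 ran with Utf1, Sap18 and Llph-ps2 (0.98, 0.98 and 0.97), Gdf15 with Efhb, Mterf1a and Cmtm8 (0.81, 0.81 and 0.80), Lmnb1 with Ccdc112, Tmem265 and Rev3l (0.98, 0.97 and 0.97) and Igfbp3 with Zdhhc15, Gpc3 and Gm1673 (0.99, 0.99 and 0.99). Il6 has no such list, since it passed the filter in no table. Per kb of exon, the order of mean levels in Natural groups put Trp53 first in PGCs and in oocytes of both ages, Cdkn1a first in cumulus cells, Igfbp3 first in fetal ovaries and Cdkn2b first in adult ovaries, and Il6 was last or level with other genes at 0 in all but the cumulus cells.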

How the data were processed

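RNA-seq was done on mouse ovaries, PGC pools, oocytes and cumulus pools. The deposited gene counts were made by the authors, whose processing notes name Trimmomatic 0.32, STAR 2.3.0e, featureCounts 1.5.0 and the build mm10, as whole reads per gene in 1 table per tissue and age. Nonzero counts were even in 56.5% to 73.2% of cases, so intervals and floors (3 reads) cover counting error only and may be too narrow. No libraries were identical.

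Counts as deposited were tested with edgeR 4.0.16 in R 4.3.3 (quasi-likelihood, TMM, filterByExpr, Benjamini-Hochberg over all genes, adjusted p below 0.05). Adult ovaries shared 1 model for age and the interaction. Cumulus pools had the library-name style as a covariate. DESeq2 1.42.0 and limma 3.58.1 were alternatives, with other size factors, no filter, replicate blocks and each library left out. The 39-week oocytes were pooled, and a 2-fold difference was counted where either pool reached 1 CPM. Scripts were tested on simulated data.

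The members and lists were chosen with earlier results of these data known. Text names all 9 members, at most 5 called genes per list and comparison, and 3 genes most like each member by Pearson r of log2 CPM (prior count 2). Where the labels name no separate animal or litter, p-values measure only the spread between samples, which may be technical. A set of 27 gene names in the ovary files had turned into numbers, none of them a member.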

Additional observations from a re-analysis of the deposited data

Results flagged for a closer look

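Single samples standing apart from their group by Dixon's test at 95% were sought in 118 groups of 4 to 10 samples, and 21 were found, 20 of them at the highest value. For normally distributed values, chance alone gives about 1 in 20 groups. A group with reads in only 1 sample is always flagged, whatever its level, so the 21 cannot be set against that rate. The values are given without an explanation.

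In ovaries, Cdkn2a stood at 58.6 CPM in 39-week Natural replicate 1, above the other 4. Trp53 stood lowest in E18.5 IVF replicate 3, at 66.4 CPM. Il6 stood at 0.1665 CPM in E18.5 Natural replicate 1 and at 0.8413 CPM in E18.5 IVF replicate 5, on 2 and 6 reads.

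In PGC pools, Cdkn2a stood at 3.937 CPM in Natural replicate 2. Gdf15 stood at 1.682 CPM in IVF replicate 2. Il6 (0.1717 CPM, 1 read) and Lmnb1 (63.52 CPM) stood highest in IVF replicate 4. In 12-week oocyte sets, Gdf15 stood at 3.392 CPM in IVF set 1, and Il6 stood at 0.09089 CPM in Natural set 4 and at 0.3086 CPM in IVF set 3.

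Among 39-week oocytes, Natural oocyte 9 stood apart for Cdkn1a (34.61 CPM), Cdkn2d (18.34 CPM), Trp53 (189.8 CPM), Gdf15 (9.633 CPM) and Lmnb1 (31.46 CPM). Cdkn2a stood at 0.16 CPM (2 reads) in Natural oocyte 3, and Cdkn2b stood at 15.1 CPM in Natural oocyte 4 and at 2.127 CPM in IVF oocyte 7. Cdkn2d stood at 6.916 CPM in IVF oocyte 10, and Trp53 at 211.9 CPM in IVF oocyte 8.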

How the results depend on the processing

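DESeq2 called 1 member, Cdkn2a, between conceptions at 39 weeks. For Natural ovaries with age, a replicate block on the shared replicate numbers left 1 member called, Cdkn2a, and Gdf15 gave −1.60 (adjusted p = 0.0624, edgeR). For IVF ovaries with age, 0 members were called without the filter, with the replicate block and over the shared numbers without the block (added after seeing the data), and 0 to 1 when 1 library was left out. Between conceptions within a table the numbers did not pair the samples, since deviations of same-numbered libraries correlated at −0.357 to 0.536 and not above 0.1 in every pair. Pairing across ages, where a number names different animals, was not checked. Members at least 2-fold apart in oocytes without the filter on low values were 5 between conceptions at 39 weeks, 8 with age in Natural and 3 with age in IVF. Natural oocytes with age gave 3 after TMM scaling and 3 without oocyte 9.

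Fold changes that turned sign were all uncalled. With the replicate block these were Gdf15 at 39 weeks (−0.065), Lmnb1 in PGCs (0.032) and, in the interaction, Lmnb1 (−0.12) and Trp53 (−0.036). Over the shared numbers without the block they were Cdkn2d in PGCs (−0.076) and, in the interaction, Lmnb1 (−0.16) and Trp53 (−0.038), and with limma Cdkn1a in oocyte sets (−0.045). Leaving out 1 library gave ranges across 0. In E18.5 ovaries these were −0.48 to 0.024 for Cdkn2a, −0.15 to 0.54 for Cdkn2b and −0.20 to 0.013 for Lmnb1. In adult ovaries they were −0.10 to 0.38 for Cdkn1a at 12 weeks, −0.20 to 0.24 for Gdf15 and −0.13 to 0.20 for Igfbp3 at 39 weeks, −0.18 to 0.00022 for Cdkn2d with age in Natural, and −0.027 to 0.35 for Lmnb1 and −0.070 to 0.085 for Trp53 in the interaction. In PGCs they were −0.25 to 0.74 for Cdkn2d and −0.33 to 0.21 for Lmnb1, and in oocyte sets −0.34 to 0.41 for Cdkn1a and −0.031 to 0.16 for Trp53. The cause was not tested.

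Counts over all genes depended on the tool. edgeR called 891 genes at E18.5, 1 at 12 weeks, 45 at 39 weeks, 4 in oocyte sets, 1 in cumulus cells, 1209 with age in IVF and 3 in the interaction, and DESeq2 called 1924, 656, 1229, 46, 30, 2253 and 1163. With the replicate block the counts were 3 at E18.5, 24 at 39 weeks, 24 in cumulus cells, 255 with age in IVF and 0 in the interaction. The block also used fewer libraries at E18.5 and with age, and over those libraries without it the counts were 1 at E18.5, 567 with age in IVF and 0 in the interaction. Low reads limit Il6 in every table, Gdf15 in E18.5 ovaries, PGCs and cumulus cells, and Cdkn2a in PGCs, oocytes and cumulus cells.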
